A study of Homo sapiens with 4 samples.

Results

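The histone genes of Huh7 cells were described in a double knockout clone and a control clone. They were chosen by gene symbol, as the rows of the deposited count table that begin with HIST1H to HIST4H, H2AF, H3F3 or H1F and that hold at least 20 counts over all 4 libraries. Of 88 such symbols, 66 reached 20 counts, out of 42169 gene rows in all. These 66 comprise 55 replication-dependent histone genes, 10 replacement variant genes and 1 antisense RNA gene, H1FX-AS1, which was kept out of the class summaries. Of the 22 symbols below 20 counts, 16 had 0 counts in every library. Of these 16, 10 had under 20% of their 80-base windows, the length of a read, found in no other annotated gene, and since the counting rule for reads that match several genes is not stated, their 0 may not mean that they lack mRNA. The genes just inside the threshold were HIST1H3G with 24 and HIST1H3J with 28 counts, and those just outside were H3F3C with 7 and HIST1H4I with 5 counts. The counts used for the choice were summed over both clones.

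The tested clone was Brf1/TTP DKO clone 18, in which TTP (encoded by ZFP36) and Brf1 (here butyrate response factor 1, encoded by ZFP36L1) were knocked out. It was set against Huh7 control clone 1, labelled wild type. TTP and Brf1 are proteins that bind AU-rich elements in the 3′ untranslated region (UTR) of mRNAs and speed their decay, and Huh7 is a line from a human liver tumour. Both clones received DMSO for 3 h and then 5 µg/ml actinomycin D, which blocks transcription, for 10 min before harvest. Each clone gave 2 libraries of total RNA depleted of ribosomal RNA, so transcripts with and without a poly(A) tail could be counted. Each genotype is 1 clone, so genotype and clone cannot be told apart, and since nothing in the labels names separate cultures for the pair of libraries of a clone, the p-values measure a spread that may be technical.

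Replication-dependent histone genes supply the linker histone H1 and the core histones H2A, H2B, H3 and H4 that package new DNA in S phase. They lie in clusters, mostly lack introns, and their mRNAs end in a conserved stem-loop in place of a poly(A) tail. The stem-loop binding protein SLBP holds this end through processing, export, translation and rapid decay once DNA synthesis stops. Replacement variants are made from dispersed genes, mostly as polyadenylated mRNAs, in and out of S phase, and mark particular chromatin such as promoters, damaged DNA or silent regions.

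The libraries held 10271428 and 16430228 gene counts in DKO replicates 1 and 2, and 9685798 and 12507263 in control replicates 1 and 2. Levels are in CPM, counts scaled to the library total with TMM factors, and 3 counts equal 0.290 and 0.186 CPM in the DKO libraries and 0.302 and 0.245 CPM in the control libraries. Mitochondrial transcripts took 3.59% and 1.16% of counts in the DKO libraries, against 2.53% and 0.448% in the control libraries. Of 13 hepatocyte markers, 13 were measured in both clones, with 2 higher (the plasma proteins AHSG, log2 fold change 1.74, and TTR, 0.78), 1 lower (AFP, a fetal plasma protein, −1.13) and 10 that did not pass in the edgeR test described below, and they summed to 29973 and 27475 CPM in DKO, against 28160 and 28533 CPM in control. Among markers of other cell types 3 passed the filter on low counts, of which PECAM1, an endothelial adhesion protein, was higher in DKO at 26.7 and 29.1 CPM, against 7.46 and 6.28 CPM in control. These markers summed to 134 and 143 CPM in DKO, against 79.4 and 128 CPM in control. The collagen gene COL1A2 made up most of the sum, at 101 and 107 CPM in DKO and 65.6 and 112 CPM in control. COL1A1, also a collagen gene, had 6.18 and 6.51 CPM in DKO and 5.94 and 8.65 CPM in control. Neither collagen gene passed the test, and PTPRC, CD68, CD3E, DCN, VWF and DES were at or near 0. The part of these markers in the histone results was not tested. ZFP36 mRNA was at 37.2 and 36.9 CPM in DKO and 29.3 and 23.8 CPM in control, and ZFP36L1 mRNA at 146 and 120 CPM in DKO and 132 and 111 CPM in control. The labels do not give the kind of mutation, so these mRNA levels do not check the genotype.

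Relative to the typical gene, histone mRNAs stood mostly higher in the DKO libraries, with the most calls among the H2B genes. Of the 66 genes, 64 passed the filter on low counts and entered a test over all 13359 such genes (edgeR's quasi-likelihood test, Benjamini-Hochberg adjusted p under 0.05). In DKO, 13 rose, 1 fell and 50 did not pass. Over all genes tested, 2.24% were called higher and 3.14% lower. The DKO pair lay above the control pair for 36 of the 64 genes and below it for 5, and the pairs overlapped for 23. Over all genes these shares were 25% above and 24.8% below. The log2 fold change, DKO over control, was positive for 52 of the 64 and negative for 12. Its median was 0.44 over 53 replication-dependent genes, 0.27 over 10 replacement variants and 0.0015 over all genes tested. These values are on TMM scaling, which sets the typical gene near 0. Scaling to the ERCC spike-in RNA put the 3 medians at −0.25, −0.39 and −0.68, left 0 of the 13 higher calls and kept the 1 lower call. Spike-in RNA took 1.62% and 2.10% of all counts in DKO replicates 1 and 2, against 1.47% and 0.946% in control replicates 1 and 2. The gap between the clones in this share was thus wider in replicate 2 than in replicate 1. In bulk samples such as these, a different number of cells in S phase and a different amount of histone mRNA per such cell cannot be told apart. The directions below are relative to the typical gene of the library.

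**Figure D1:**
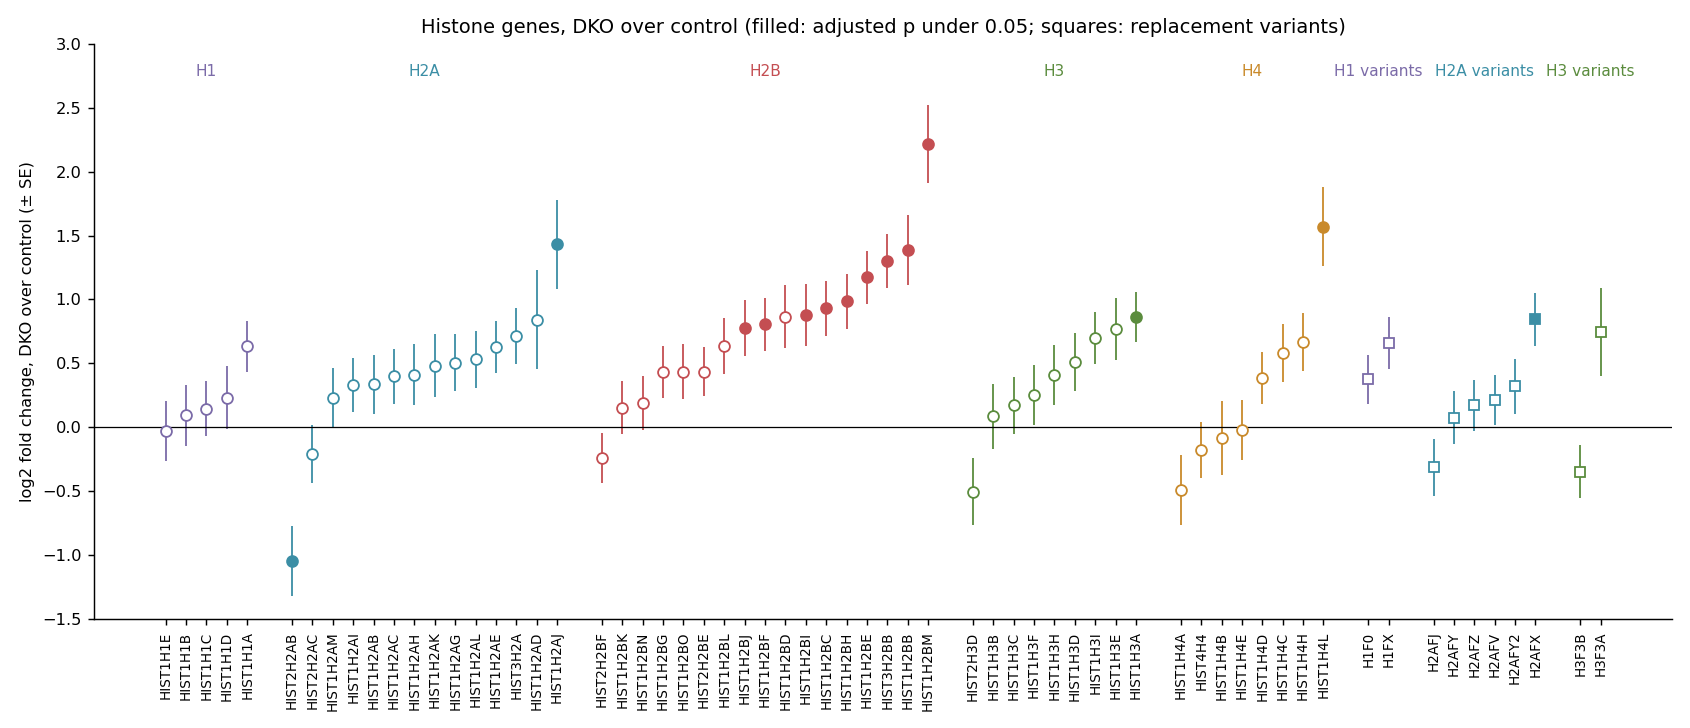
The log2 fold change (DKO over control, vertical axis, with standard error) is plotted for the 53 replication-dependent genes (circles) and 10 replacement variants (squares) that were tested, ordered within each histone type, on TMM scaling, filled where the adjusted p is under 0.05. The filled points are 13 above 0, of which 9 are H2B genes, and HIST2H2AB below 0.

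The summed level of replication-dependent histone mRNA overlapped between the clones. Over the 55 genes it was 7810 and 10971 CPM in the DKO libraries, against 6830 and 8116 CPM in the control libraries, and DKO replicate 1 thus lay below control replicate 2. The fold of the means was 1.26. An exact 2-sided permutation test of 2 against 2 libraries cannot give a p below 0.333, so no test is given for sums. In DKO, 54 of the 55 genes were higher in replicate 2 than in replicate 1, whereas in control 32 of the 55 were. Without DKO replicate 2 the class median log2 fold change was 0.18, and fewer genes were called, in the class and over all genes. HIST1H2BM, HIST1H2BB and HIST3H2BB were called whichever library was left out.

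On TMM scaling, H2B was the histone type whose summed level did not overlap between the clones by a wide margin. It summed to 1971 and 2457 CPM in DKO, against 1499 and 1311 CPM in control, a fold of 1.58. H2A also did not overlap, but by a few CPM, with 1399 and 2073 CPM in DKO and 1268 and 1395 CPM in control. The H3 sums were 1797 and 2513 CPM in DKO and 1508 and 2132 CPM in control, and those of H4 were 1180 and 1850 CPM in DKO and 1113 and 1539 CPM in control. H1 summed to 1462 and 2078 CPM in DKO and 1442 and 1739 CPM in control. For H1, H3 and H4, DKO replicate 1 lay below control replicate 2. In control replicate 2 the H1, H3 and H4 sums were above those of control replicate 1 while the H2B sum was below it. As a share of all replication-dependent core histone counts, H2B made up 31.1% and 27.6% in DKO, against 27.8% and 20.6% in control, and these shares overlapped. No test of the difference between histone types was made.

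**Figure D2:**
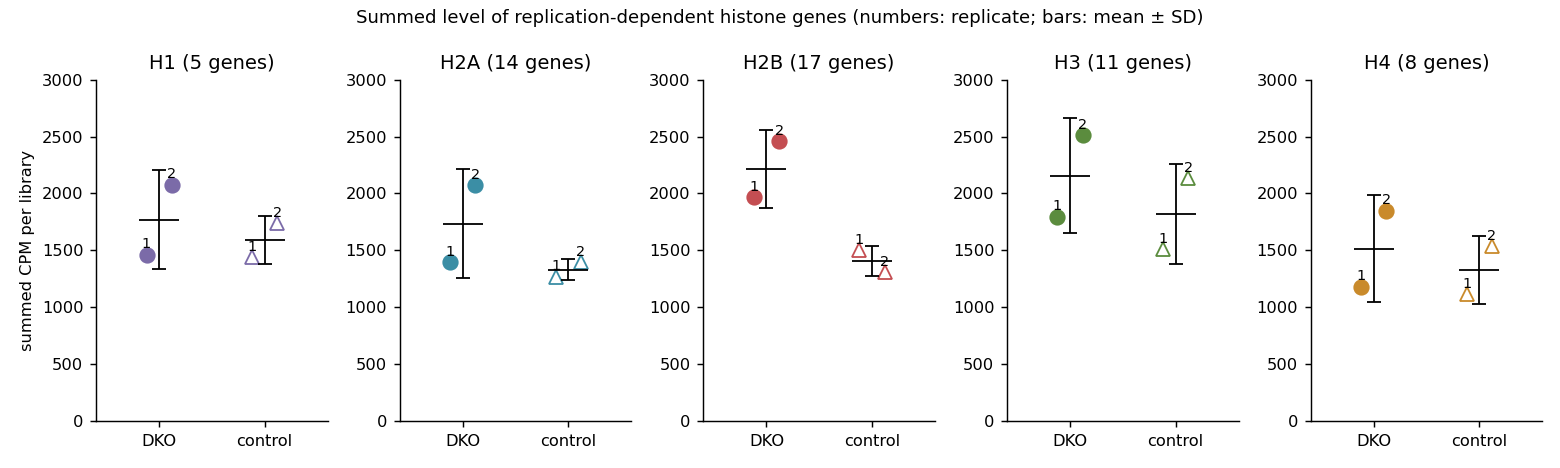
Each panel sums the CPM (vertical axis) of the replication-dependent genes of 1 histone type in each library, with DKO (filled circles) left of control (open triangles), the replicate number beside each point and the mean ± SD as bars (n = 2). The H2B points are 1971 and 2457 CPM in DKO and 1499 and 1311 CPM in control, while the H1, H3 and H4 points overlap.

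All 17 replication-dependent H2B genes were tested: 9 rose in DKO, 0 fell and 8 did not pass, with a median log2 fold change of 0.81. The other 36 tested replication-dependent genes had 3 higher, 1 lower and a median of 0.39. The DKO pair lay above the control pair for 14 of the 17 H2B genes. On ERCC scaling the H2B median was 0.13 and 0 of the 17 were called. Leaving out control replicate 2 gave an H2B median of 0.56, and leaving out DKO replicate 2 gave 0.59. Fewer of the 17 were called in each of these fits. H2B genes resemble each other in coding sequence, and 14 of the 17 had at least 90% of their 80-base windows, the length of a read, found in no other annotated gene. Of these 14, 8 rose, with a median of 0.84, a subset chosen after seeing the data.

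HIST1H2BM had the largest log2 fold change of any histone gene tested. This 1-exon gene (chr6:27815044-27815424, hg38) had 9.28 and 12.8 CPM in DKO, against 2.32 and 2.45 CPM in control, from 96 and 207 counts in DKO and 23 and 30 in control. The lowest DKO library was thus well above the highest control library, and the log2 fold change was 2.22 (SE 0.30, adjusted p = 0.00072, edgeR). HIST3H2BB (chr1:228458107-228460470), an H2B gene of the small cluster on chromosome 1, had 41.2 and 48.0 CPM in DKO, against 16.8 and 19.3 CPM in control. Its log2 fold change was 1.30 (SE 0.21, adjusted p = 0.00246). HIST1H2BB (chr6:26043277-26043657) had 133 and 172 CPM in DKO, against 78.2 and 38.8 CPM in control. Its control libraries differed by about as much as its DKO libraries in CPM, with means of 153 ± 27.7 and 58.5 ± 27.8 CPM (SD, n = 2 each), and its log2 fold change was 1.39 (SE 0.27, adjusted p = 0.00854).

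The other 6 H2B genes that rose had log2 fold changes between 0.78 and 1.17. HIST1H2BE had 134 and 163 CPM in DKO, against 73.2 and 58.5 CPM in control (log2 fold change 1.17, edgeR adjusted p = 0.00403), and 72.7% of its windows were unique. HIST1H2BH had 138 and 160 CPM in DKO, against 88.8 and 62.2 CPM in control, a log2 fold change of 0.98 (edgeR adjusted p = 0.0149). HIST1H2BC had 273 and 344 CPM in DKO, against 189 and 135 CPM in control, a log2 fold change of 0.93 (edgeR adjusted p = 0.0217). None of these 3 overlapped between the clones, and in each the control library of replicate 2 was the lowest. HIST1H2BI, at 0.88 (edgeR adjusted p = 0.0460), had 22.7 and 34.6 CPM in DKO, against 15.9 and 15.3 CPM in control. HIST1H2BF, at 0.81 (edgeR adjusted p = 0.0336), had 60.4 and 75.9 CPM in DKO, against 42.9 and 35.2 CPM in control. HIST1H2BJ, at 0.78 (edgeR adjusted p = 0.0497), had 122 and 155 CPM in DKO, against 94.2 and 67.5 CPM in control. These did not overlap between the clones either, but several calls depended on 1 library. Without DKO replicate 2 none of these 6 passed the threshold, with log2 fold changes between 0.54 (HIST1H2BI) and 1.02 (HIST1H2BE). Without control replicate 2, HIST1H2BC (0.70), HIST1H2BF (0.66) and HIST1H2BJ (0.55) did not pass, nor did HIST1H2BF (0.96) and HIST1H2BJ (0.95) without DKO replicate 1. HIST1H2BI did not pass in DESeq2 (adjusted p = 0.0529) or limma-voom (adjusted p = 0.0559), and HIST1H2BJ did not on upper-quartile scaling (edgeR adjusted p = 0.0564).

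Among H2B genes that did not pass, HIST1H2BD came nearest, with 265 and 310 CPM in DKO, against 203 and 113 CPM in control (log2 fold change 0.87, edgeR adjusted p = 0.0519), and it passed in DESeq2 (adjusted p = 0.0258) and limma-voom (adjusted p = 0.0414). HIST1H2BG had 190 and 249 CPM in DKO, against 152 and 173 CPM in control, a log2 fold change of 0.43. HIST2H2BF was the H2B gene with a negative value, −0.24, at 101 and 122 CPM in DKO, against 124 and 139 CPM in control, with 79.1% of its windows unique. The others that did not pass lay between 0.15 (HIST1H2BK) and 0.64 (HIST1H2BL).

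**Figure D3:**
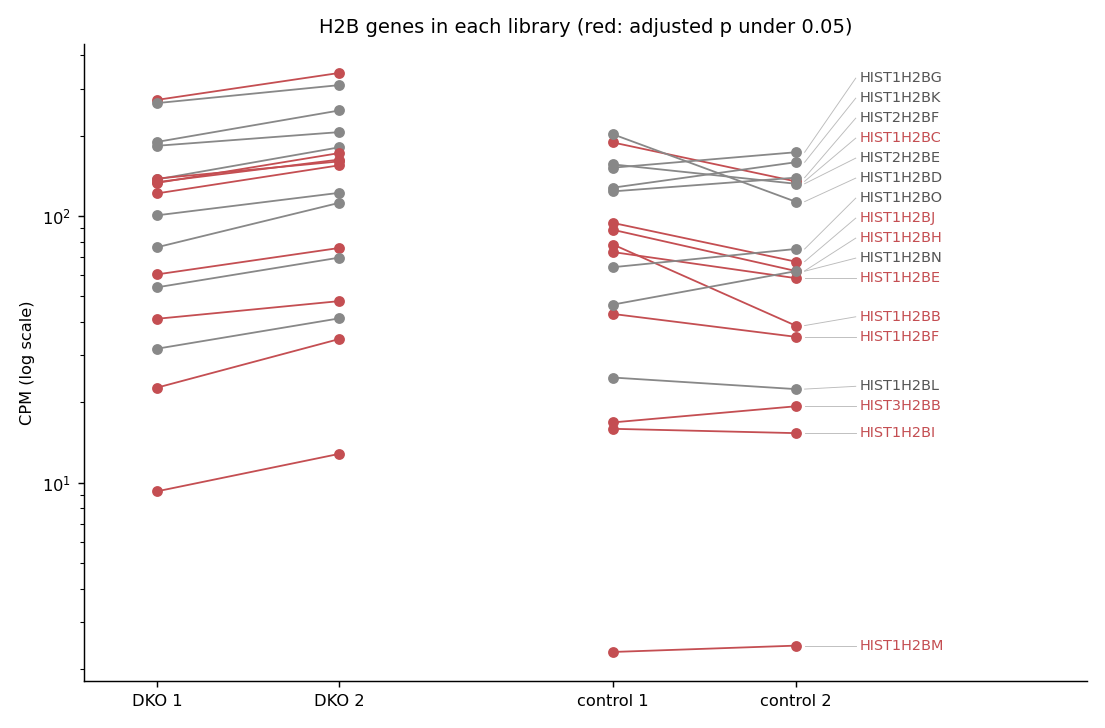
The level of each of the 17 H2B genes is plotted in CPM (vertical axis, log scale) in the DKO libraries (left) and the control libraries (right), with red for an adjusted p under 0.05 and lines joining libraries of the same clone. HIST1H2BM is at the bottom with 9.28 and 12.8 CPM in DKO and 2.32 and 2.45 CPM in control, and most red lines slope down within control.

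Promoters of the 3 H2B genes called in every leave-one-out and of the one gene that fell are shown next, because H2A and H2B promoters are known for an octamer motif bound by OCT1. Each is 250 bases before to 50 bases after the gene start in RefSeq (GRCh38.p14), 5′ to 3′ on the gene's strand. Capitals mark the octamer ATTTGCAT, read on either strand.
HIST1H2BM, chr6:27814772-27815071, plus strand: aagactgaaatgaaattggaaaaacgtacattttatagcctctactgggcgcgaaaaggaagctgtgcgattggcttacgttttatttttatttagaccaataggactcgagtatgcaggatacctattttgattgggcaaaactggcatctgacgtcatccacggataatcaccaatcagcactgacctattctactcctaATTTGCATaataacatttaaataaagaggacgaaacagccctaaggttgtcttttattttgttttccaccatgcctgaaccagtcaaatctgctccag
HIST1H2BB, chr6:26043664-26043963, minus strand: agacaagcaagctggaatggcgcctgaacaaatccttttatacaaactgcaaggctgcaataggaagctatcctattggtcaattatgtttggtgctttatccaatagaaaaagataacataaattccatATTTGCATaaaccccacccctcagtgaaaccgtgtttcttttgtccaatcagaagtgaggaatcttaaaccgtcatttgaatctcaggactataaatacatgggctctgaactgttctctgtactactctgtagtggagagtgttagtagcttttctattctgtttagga
HIST3H2BB, chr1:228457853-228458152, plus strand: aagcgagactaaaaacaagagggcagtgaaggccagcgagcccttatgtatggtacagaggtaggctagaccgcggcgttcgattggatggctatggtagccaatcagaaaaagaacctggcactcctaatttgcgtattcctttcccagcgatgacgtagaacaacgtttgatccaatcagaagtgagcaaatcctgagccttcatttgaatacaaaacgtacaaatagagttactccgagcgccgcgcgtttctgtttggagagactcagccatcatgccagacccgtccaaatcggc
HIST2H2AB, chr1:149887916-149888215, minus strand: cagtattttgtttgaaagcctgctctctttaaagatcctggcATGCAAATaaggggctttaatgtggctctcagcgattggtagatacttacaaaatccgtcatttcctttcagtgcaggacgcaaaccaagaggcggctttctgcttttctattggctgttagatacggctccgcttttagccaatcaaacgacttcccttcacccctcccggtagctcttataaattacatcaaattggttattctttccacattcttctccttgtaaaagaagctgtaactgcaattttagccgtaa

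The octamer was found in the promoters of HIST1H2BM, HIST1H2BB and HIST2H2AB, and no exact match was found in that of HIST3H2BB. Promoter windows were matched for 59 of the 66 genes. ATTTGCAT, searched on both strands, was present in 13 of 17 H2B and 10 of 13 H2A windows, against 1.77% of the 35116 windows of the table. It was present in 0 of 5 H1, 1 of 9 H3, 0 of 6 H4 and 1 of 9 replacement variant windows, and the H3 window is the one that RefSeq gives for HIST1H2AD as well. Of the H2B genes that rose, 8 of 9 had it, and of those that did not pass, 5 of 8. HIST2H2AB, which fell, also had it. Windows of back-to-back H2A and H2B genes overlap, so 1 octamer can be counted for both genes. TATAAA and CCAAT were searched on both strands as well, so a match need not have the gene's orientation. TATAAA was present in 37 of the 59 windows, against 11.5% of all windows, and CCAAT in 51 of 59, against 34.6%. These matches to the other motifs were counted without regard to overlap, and all 3 are descriptions of letters, not of bound sites.

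H2A genes pair with H2B in the nucleosome as a dimer, and most H2A genes start back to back with an H2B gene. Of 14 replication-dependent H2A genes tested, 1 rose, 1 fell and 12 did not pass, with a median log2 fold change of 0.45. HIST1H2AJ rose (log2 fold change 1.43, SE 0.35, edgeR adjusted p = 0.0281), with 7.54 and 9.54 CPM in DKO, against 4.53 and 1.96 CPM in control. Only 17.9% of its windows were unique, most of the others being shared with HIST1H2AI, so its value is uncertain, and it did not pass without DKO replicate 2 (1.23) or without control replicate 2 (0.92). HIST2H2AB (chr1:149887524-149887916) was the histone gene that fell. It had 15.5 and 27.4 CPM in DKO, against 35.2 and 53.9 CPM in control, so DKO replicate 2 came close to control replicate 1. Its log2 fold change was −1.05 (SE 0.27, edgeR adjusted p = 0.0365), and it did not pass without DKO replicate 1 (−0.70) or without control replicate 2 (−0.71). The 3 most counted H2A genes did not pass: HIST1H2AC at 0.40, HIST1H2AG at 0.50 and HIST1H2AE at 0.63. HIST1H2AC had 289 and 418 CPM in DKO, against 272 and 265 CPM in control, and HIST1H2AE had 248 and 318 CPM in DKO, against 196 and 170 CPM in control.

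Back-to-back pairs allow the 2 types to be set side by side at the same place. In 11 pairs an H2B and an H2A gene started within 1000 bases of each other on opposite strands, with gene models that do not overlap, and in 10 of them both genes were tested. The H2B gene had the larger log2 fold change in 7 of the 10. The median log2 fold change was 0.71 over the H2B and 0.46 over the H2A genes, and the difference within a pair, H2B minus H2A, had a median of 0.29 and a range of −0.26 to 0.79. The largest difference was in the pair HIST1H2BM and HIST1H2AJ (2.22 and 1.43), and the lowest of these 10 in HIST1H2BK and HIST1H2AH (0.15 and 0.41). Unique windows made up 2.2% in HIST1H2AD, 15.0% in HIST1H2AM, 17.9% in HIST1H2AJ, 40.3% in HIST1H2AI and 55.3% in HIST1H2BK. The differences in the pairs that hold these genes are therefore uncertain. HIST1H2BN and HIST1H2AK also start within 1000 bases of each other but were left out of these counts because their annotated gene models overlap. Their log2 fold changes were 0.19 and 0.48, a difference of −0.29, below the range of the 10 pairs, and 0% of the windows of HIST1H2AK were unique. In HIST3H2BB and HIST3H2A, 233 bases apart, the values were 1.30 and 0.71.

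**Figure D4:**
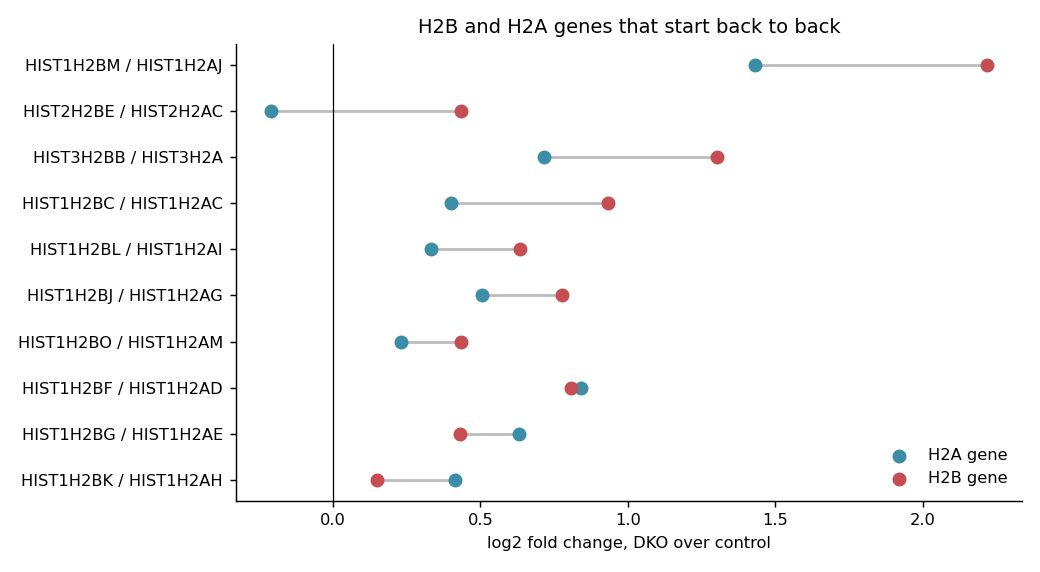
The log2 fold change (DKO over control, horizontal axis) is shown for the H2B gene (red) and the H2A gene (blue) of the 10 back-to-back pairs without overlapping gene models in which both were tested, ordered by the difference. The red point lies to the right in 7 pairs, and the pair HIST1H2BM and HIST1H2AJ is farthest right.

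H3 and H4 form the inner tetramer of the nucleosome. Of 11 replication-dependent H3 genes 9 were tested, and 1 rose, 0 fell and 8 did not pass, with a median log2 fold change of 0.41. HIST1H3A rose, with 128 and 154 CPM in DKO, against 80.7 and 73.8 CPM in control (log2 fold change 0.87, SE 0.20, edgeR adjusted p = 0.0186), and did not pass without DKO replicate 1 (1.00) or without DKO replicate 2 (0.72). HIST1H3B, the most counted histone gene here, overlapped between the clones. It had 581 and 861 CPM in DKO, against 534 and 826 CPM in control, a log2 fold change of 0.08 (SE 0.26), with replicate 2 above replicate 1 in both clones. Per kilobase of exon HIST1H3B had 1414 and 2095 CPM in DKO and 1299 and 2009 CPM in control, above HIST1H3C with 1166 and 1487 CPM in DKO and 997 and 1358 CPM in control. The log2 fold change was 0.17 for HIST1H3C, 0.41 for HIST1H3H and −0.50 for HIST2H3D, and only 33.1% of windows were unique in the last of these. HIST1H3G and HIST1H3J were not tested, with levels between 0.163 and 0.991 CPM.

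Among 8 H4 genes, 1 rose, 0 fell and 7 did not pass, with a median log2 fold change of 0.18 and 4 values on each side of 0. HIST1H4L (chr6:27873199-27873510) had 13.3 and 20.3 CPM in DKO, against 7.36 and 4.16 CPM in control, with no overlap between the clones (log2 fold change 1.57, SE 0.31, edgeR adjusted p = 0.00815), and it did not pass without DKO replicate 2 (1.22). HIST1H4B and HIST1H4E, of the most counted H4 genes, overlapped between the clones, with log2 fold changes of −0.08 and −0.02. HIST1H4B had 278 and 478 CPM in DKO, against 279 and 522 CPM in control. HIST1H4C had 235 and 388 CPM in DKO, against 212 and 204 CPM in control, and its value of 0.58 did not pass. HIST1H4A had the lowest value of the type, −0.49.

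Linker histone H1 binds the DNA between nucleosomes. None of the 5 replication-dependent H1 genes passed the edgeR test, against 1 at an unadjusted p under 0.05, 0 in DESeq2 and 0 in limma-voom. Their median log2 fold change was 0.14. HIST1H1C had 442 and 599 CPM in DKO, against 452 and 490 CPM in control, HIST1H1B had 373 and 593 CPM in DKO, against 399 and 508 CPM in control, and HIST1H1E had 363 and 525 CPM in DKO, against 379 and 530 CPM in control. These 3 are among the most counted histone genes and overlapped between the clones. HIST1H1A was the H1 gene with the largest value, 0.63, at 268 and 341 CPM in DKO, against 200 and 193 CPM in control, and did not pass (edgeR adjusted p = 0.0778).

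Of 10 replacement variants 1 rose, 0 fell and 9 did not pass. H2AFX encodes H2A.X, whose phosphorylated form marks DNA breaks. It had 169 and 210 CPM in DKO, against 92.2 and 119 CPM in control, with no overlap between the clones. It rose by 0.85 on the log2 scale (SE 0.21, edgeR adjusted p = 0.0271) and did not pass without DKO replicate 1 (1.00) or without DKO replicate 2 (0.68). H2AFZ and H2AFV encode the 2 forms of H2A.Z, found at promoters. H2AFZ had 338 and 414 CPM in DKO, against 315 and 353 CPM in control (0.17), and H2AFV had 306 and 297 CPM in DKO, against 286 and 234 CPM in control (0.21). H2AFY and H2AFY2, which encode the macroH2A forms of silent chromatin, were at 0.07 and 0.32, and H2AFJ was at −0.31 with 16.4 and 20.5 CPM in DKO, against 21.2 and 24.8 CPM in control.

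H3F3A and H3F3B encode the same protein, H3.3, which replaces H3 in transcribed genes and elsewhere. H3F3B was the more counted, with 380 and 434 CPM in DKO, against 465 and 571 CPM in control, and both DKO libraries lay below both control libraries. The log2 value, −0.35 (SE 0.21), missed the threshold (edgeR adjusted p = 0.371). H3F3A had 11.4 and 9.54 CPM in DKO, against 9.07 and 3.59 CPM in control, a value of 0.74 that did not pass (edgeR adjusted p = 0.242). It shares windows with a copy, H3F3AP4, and how reads that match several genes were counted is not stated, so its level is uncertain. The linker variants H1FX and H1F0, which encode H1.X and H1.0, had log2 fold changes of 0.66 (adjusted p = 0.0713) and 0.37 (adjusted p = 0.286) in the edgeR test. H1FX had 72.9 and 94.8 CPM in DKO, against 51.8 and 54.5 CPM in control. It overlaps H1FX-AS1, which had 0.966 and 0.991 CPM in DKO and 1.11 and 1.06 CPM in control, and the strand setting of the counting is not stated.

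**Figure D5:**
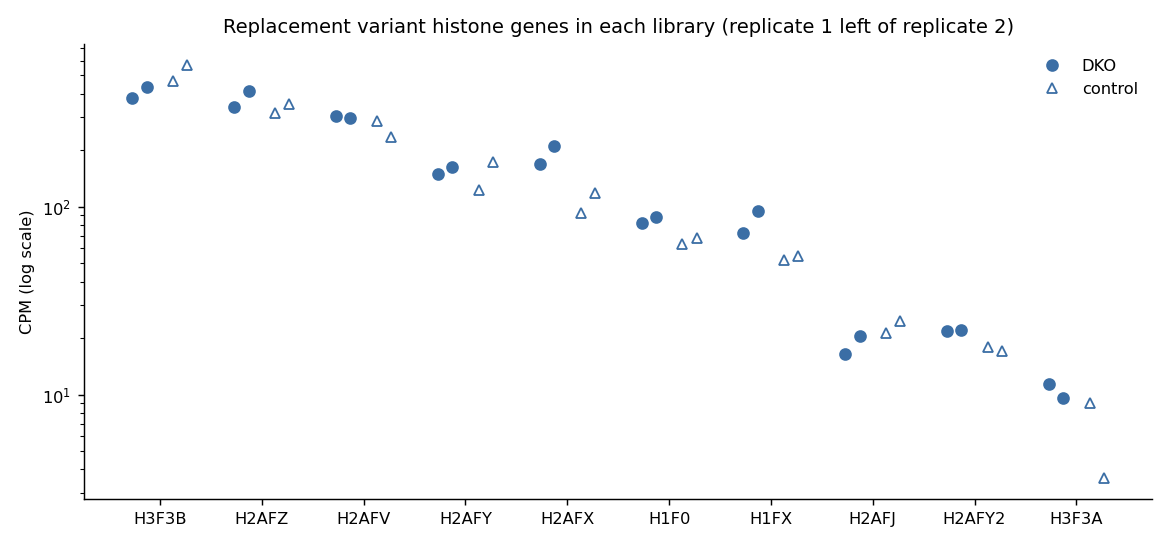
The level of each replacement variant gene is plotted in CPM (vertical axis, log scale) in the DKO libraries (filled circles) and the control libraries (open triangles), ordered by mean level. H2AFX is the gene that passed the test, at 169 and 210 CPM in DKO and 92.2 and 119 CPM in control.

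The 3′ stem-loop was looked up in the annotated transcripts, since it separates the 2 classes. Among replication-dependent genes 26 of 55 had an annotated 3′ UTR (GENCODE release 29), and 23 of these 26 held a match to the histone stem-loop consensus. The match was found in 11 of 12 H2B genes with an annotated 3′ UTR. Among the 10 replacement variants 1 had it, H2AFX, which was also the variant that rose. Over the 11900 tested protein-coding genes with a 3′ UTR 29 held a match, of which 6 were not histone genes of the set. Examples from H2B genes that rose, H2AFX and an H4 gene are shown, with the stem and loop in capitals, as DNA letters on hg38.
HIST3H2BB, chr1:228458533-228458558, plus strand: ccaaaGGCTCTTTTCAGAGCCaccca
HIST1H2BC, chr6:26123467-26123492, minus strand: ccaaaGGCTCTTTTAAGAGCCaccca
HIST1H2BH, chr6:26252050-26252075, plus strand: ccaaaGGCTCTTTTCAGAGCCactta
H2AFX, chr11:119094893-119094918, minus strand: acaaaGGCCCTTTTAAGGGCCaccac
HIST1H4H, chr6:26285126-26285151, minus strand: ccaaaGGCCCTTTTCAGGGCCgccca

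In HIST3H2BB the match begins 27 bases after the stop codon, and in H2AFX 49 bases after it. The AU-rich heptamer UAUUUAU, a sequence of the kind that TTP and Brf1 bind, was present in the longest 3′ UTR of 5 of the 26 replication-dependent genes and 4 of the 10 variants, against 36.1% of tested genes. Of the 13 histone genes that rose, 7 had an annotated 3′ UTR, 6 of these held the stem-loop and 1 the heptamer. HIST1H2BH is that gene, and HIST1H3E, which did not pass (0.77), had the most copies, 11. The longest annotated 3′ UTR ran 1640 bases past the stem-loop in HIST1H2BH and 1862 bases in HIST1H3E. In HIST1H3E the stem-loop begins 30 bases after the stop codon, which leaves too little room before it for all 11 copies. Elsewhere the side of the stem-loop on which heptamers lie was not looked up. Heptamers past the stem-loop fall outside mRNAs that end there.

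By cluster, the 45 tested genes of HIST1 on chromosome 6 had a median log2 fold change of 0.50, with 11 higher and 0 lower. The 5 genes of HIST2 on chromosome 1 had 0 higher, 1 lower and a median of −0.24, and the 2 genes of HIST3 had 1 higher and values of 0.71 and 1.30. HIST4H4 on chromosome 12 was at −0.18. Other protein-coding genes between the histone genes of chromosome 6 were examined as well: of 13 tested, 12 had positive values, with a median of 0.38. Of these, 1 was called higher, TRIM38, a ubiquitin ligase gene, with 53 and 49 counts in DKO and 1 and 2 counts in control. The part of these neighbours' values in the histone values was not tested. Over the 53 replication-dependent genes the log2 fold change had a Pearson correlation across genes of −0.18 with GC content and 0.02 with log2 exonic length, as a description.

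Genes known to act on histone mRNA and protein are given next, to be read against 2.24% called higher and 3.14% called lower over all genes. Of 26 tested genes grouped here under histone 3′ end processing and stem-loop binding, 0 rose and 1 fell. CPSF1, a subunit of the cleavage complex, fell, at 77.0 and 82.7 CPM in DKO, against 149 and 194 CPM in control (log2 fold change −1.10, edgeR adjusted p = 0.00553). At an unadjusted p under 0.05, 1 was higher and 1 lower. The higher gene was NPAT, at 35.8 and 21.3 CPM in DKO, against 19.9 and 11.9 CPM in control (0.84, edgeR adjusted p = 0.105). SLBP had 111 and 118 CPM in DKO, against 127 and 163 CPM in control, a log2 fold change of −0.35 that did not pass (edgeR adjusted p = 0.346). Of 20 tested genes of histone mRNA decay none was called by edgeR, 2 were higher at an unadjusted p under 0.05, and DESeq2 and limma-voom called 1 and 0. Among 32 histone chaperones and variant loaders 0 rose and 1 fell, TONSL, a reader of new H4, at 26.9 and 27.7 CPM in DKO, against 56.9 and 85.9 CPM in control (log2 fold change −1.39, edgeR adjusted p = 0.00217). CPSF1 and TONSL both lie on chromosome 8. Other genes of these lists and of the S phase list below lie there too and did not pass, some with positive and some with negative values. The part of the chromosome in these values was not tested.

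Of 36 genes of S phase and DNA replication edgeR called none, 2 higher and 4 lower were found at an unadjusted p under 0.05, and DESeq2 and limma-voom called 1 and 0. Their median log2 fold change was −0.15, and 10 of the 36 were positive. Their summed level was 4647 and 5162 CPM in DKO, against 4972 and 5946 CPM in control, with overlap between the clones.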

How the data were processed

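RNA from 2 DKO and 2 control libraries of Huh7 cells was sequenced, with reads of 80 bases from 1 end. The authors deposited raw counts per gene and library, not normalized. The submitters' processing notes list the genome build hg38 and the tools DESeq2, featureCounts, Subread 1.6.3 and STAR 2.5.3a, with no roles. With the annotation, the strand setting and the rule for multiply matching reads not given in the sources used here, values of near-identical, overlapping and antisense genes are uncertain. The members and lists were chosen with earlier results of these data known.

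From the counts, edgeR 4.0.16 (R 4.3.3) was run on all gene rows without the ERCC spike-ins: filterByExpr, TMM, quasi-likelihood fit with clone as the only term, and Benjamini-Hochberg adjustment over 13359 genes, called under 0.05. Alternatives were other scalings, no filter, GC and length trends removed, a replicate block, leave-one-out fits, DESeq2 1.42.0 and limma-voom 3.58.1. Libraries of a clone differed beyond counting noise (chi-square per degree of freedom 27.1 for DKO and 33.6 for control), so more than repeat reads of 1 library would. This does not tell separate cultures from separate preparations of the same RNA. Named genes are every histone gene past the threshold, the 3 most counted of each type and class, the 2 highest and 2 lowest log2 fold changes of each class, the genes beside the 20-count threshold, ZFP36, ZFP36L1, SLBP and called members of the pathway lists. Genes named beyond this (HIST1H2BK, HIST1H2BL, HIST2H2BF, HIST1H2BN, HIST1H2AD, HIST1H2AH, HIST1H2AI, HIST1H2AK, HIST1H2AM, HIST3H2A, HIST1H1A, HIST1H3E, HIST1H4A, HIST1H4H, HIST4H4, H2AFY2, NPAT, COL1A1, COL1A2, and the called marker and neighbour genes AFP, AHSG, TTR, PECAM1 and TRIM38) were chosen after their values were seen. Positions, 3′ UTRs and window uniqueness come from GENCODE release 29 on hg38, and promoters from RefSeq.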

Additional observations from a re-analysis of the deposited data

How the results depend on the processing

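With library sizes set by the ERCC spike-in totals, 1 histone gene was called in place of 14, and 329 genes in all. Of H2B genes, 0 were called in place of 9. The class medians were −0.25 for replication-dependent genes and −0.39 for variants. The summed level stood at −0.41 on the log2 scale in place of 0.33, and the median gene at −0.68. The 13 higher genes kept positive values there, from 0.11 (H2AFX) to 1.50 (HIST1H2BM), and none passed, while HIST2H2AB (−1.85) still did. Of the named genes that had not passed, 15 turned negative: H1F0 (−0.32), H1FX (−0.054), H2AFV (−0.43), H2AFY (−0.66), H2AFZ (−0.55), HIST1H1B (−0.67), HIST1H1C (−0.58), HIST1H2AC (−0.31), HIST1H2AE (−0.056), HIST1H2AG (−0.24), HIST1H2BG (−0.29), HIST1H3B (−0.69), HIST1H3C (−0.57), HIST1H3H (−0.36) and HIST1H4C (−0.14). DESeq2 size factors, upper-quartile scaling, the DESeq2 test and limma-voom called 13 or 14 histone genes and 8 or 9 H2B genes. They called 631 to 723 genes in all. Without the filter on low counts 22 histone genes were called, among 1194 called of 22155 tested genes. With GC and length trends removed 24 were called, among 2017 called of 13359 tested genes. The replication-dependent median was then 0.38 in place of 0.44, and the H2B median 0.62 in place of 0.81. The variant median was 0.20. It was 0.21 with H1FX-AS1 counted in, an alternative chosen after seeing the data, as were the count over H2B genes and the genes with at least 90% of windows unique. The cause of these shifts was not tested.

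Leaving out 1 library at a time gave 4 to 23 histone genes called (4 without DKO replicate 2, 23 without control replicate 1), 3 to 11 H2B genes, a replication-dependent median of 0.18 to 0.72, a variant median of 0.26 to 0.33 and a summed level of 0.06 to 0.56. Values near 0 changed sign in this way for H2AFY (−0.16 to 0.34), HIST1H1B (−0.29 to 0.39), HIST1H1C (−0.094 to 0.35), HIST1H1E (−0.33 to 0.22), HIST1H3B (−0.23 to 0.43), HIST1H3C (−0.038 to 0.41), HIST1H4B (−0.53 to 0.43) and HIST1H4E (−0.33 to 0.27).

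The labels give replicates 1 and 2 in both clones but do not say that the numbers pair the libraries, and there are 2 pairs. Deviations of same-numbered libraries had a correlation of 0.47. With the replicate number as a block, 43 histone genes were called (39 higher, 4 lower), 14 of them H2B genes, and 4021 genes in all. With the block and GC and length trends removed, 45 were called, 15 of them H2B genes, and 4492 genes in all. The replication-dependent median was then 0.37, the H2B median 0.63 and the variant median 0.21. Within number 1 the replication-dependent median was 0.30, and within number 2 it was 0.58.

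Depth limits the lowest genes: HIST1H3G and HIST1H3J could not be tested, and counts near 3 carry little information. The CPM values of 3 counts reflect depth only. The SEs come from the edgeR fit and include the spread between libraries of a clone, but not the spread between clones of a genotype.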
